A study of Homo sapiens with 48 samples.

Results

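The VP64_A fibroblasts held for 24 h with transforming growth factor β (TGFβ) and interleukin 1β (IL-1β) were compared with VP64_A fibroblasts at 0 h. The comparison rested on 6 libraries, 3 at each time, of the 48 libraries of the series, chosen by column name as VP64_A_24hr and VP64_A_0hr. It asks which parts of the cytokine response are present after a day in cells with high GLIS3. All cells were CRL-4001 human skin fibroblasts, an immortalized line, carrying a reporter at IL11. The authors introduced dCas9–VP64, a catalytically inactive Cas9 joined to a transcriptional activator, and a lentiviral guide RNA, then kept selected bulk populations, so each library averaged over many integrations in a single reporter line. TGFβ and IL-1β were given at 10 ng per ml for 0, 6, 12 or 24 h. VP64_Ctrl, the other group of the CRISPR activation (CRISPRa) experiment, had the same treatment and times. The labels conflict: the titles call the VP64_A libraries a control and the VP64_Ctrl libraries GLIS3-activated, the descriptions name them the other way, and the cell line entry of all of these libraries also reads as a GLIS3 knockout. Here both groups are named by the descriptions.

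GLIS3 was measured first. The VP64_A libraries held 23.3, 27.4 and 32 normalized CPM (counts of a gene scaled to library size and composition) at 0 h and 30, 28.1 and 24.3 at 24 h. The VP64_Ctrl libraries held 2.65, 1.91 and 2.1 at 0 h and 3.14, 2.92 and 3.71 at 24 h. GLIS3 was therefore higher in every VP64_A library than in every VP64_Ctrl library, against the titles, and the VP64_A libraries of the 2 times overlapped (log2 fold change 0.00 ± 0.20, adjusted p = 0.996). GLIS3 lies on chromosome 9 (chr9:3824127-4490465, GRCh38), and none of the 5 tested genes of the GLIS, GLI and Hedgehog list was called at 24 h.

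TGFβ binds serine/threonine kinase receptors that activate SMAD proteins, and in fibroblasts it is known for inducing matrix and contractile genes. IL-1β acts through MYD88 and IRAK kinases on NF-κB and AP-1, which induce cytokines, chemokines and proteases. IL11 and LIF belong to the interleukin 6 family, whose members signal through the shared receptor subunit IL6ST (gp130). GLIS3 is a zinc-finger transcription factor.

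The 6 libraries summed to between 3218672 and 10661004 estimated counts. Estimated counts were tested in 10980 genes with edgeR's quasi-likelihood test over the 24 libraries of the CRISPRa experiment, with p-values adjusted by the Benjamini-Hochberg method, and genes under 0.05 were called. Errors after ± are approximate standard errors: the absolute log2 fold change divided by the square root of the test's F statistic. They rest on 3 libraries per group. For genes near 0 counts they may not cover the shift when a library is left out. Adjusted p-values are from this test unless another is named. Nothing in the labels says that libraries of one group came from separate cultures, so the p-values measure the spread between these libraries, which may be technical. Composition moved with time: the most abundant 50 genes took 37.9% to 41.2% of the counts at 0 h and 43% to 43.9% at 24 h, ribosomal protein genes took 6.93% to 8.68% and 4.78% to 5.22%, and the scaling factors were 1.09 to 1.12 and 0.871 to 0.906. Their part in the results was not tested. Of 16 fibroblast markers 15 were tested, and their summed level was 22400 to 24500 TPM (abundance scaled for transcript length and library size) at 0 h and 19000 to 19300 TPM at 24 h. Of 6 epithelial, 4 melanocyte and 6 endothelial markers 0 were tested, and none of these exceeded 5 counts in a library. Of 8 leukocyte markers CSF1R, the receptor of colony-stimulating factor 1, was tested alone. CSF1R was 0.687, 0.503 and 0.329 CPM at 0 h and 3.39, 5.15 and 5.21 at 24 h (log2 fold change 3.06 ± 0.58, adjusted p = 0.000211), while LYZ, CD3E and CD3D were at 0 counts in all 6 libraries. PTPRC (CD45) held 3, 6 and 4 counts at 0 h and 0 in each library at 24 h, CD14 held 6, 8 and 2 counts at 0 h and 1, 1 and 2 at 24 h, and CD163 held 2 counts in 1 library at 0 h and 0 in the others. The summed level of the 6 keratinocyte markers was 63.8 to 84.6 TPM at 0 h and 18 to 22.1 TPM at 24 h. KRT14, a keratin of basal keratinocytes, accounted for most of those counts and KRT1, TP63 and DSG3 were at 0 counts in all 6 libraries. KRT14 was 55, 71.2 and 75.9 CPM at 0 h and 16.7, 17.8 and 22.1 at 24 h (log2 fold change -1.81 ± 0.24, adjusted p = 7.83e-07). In bulk libraries fewer cells of a type and less RNA per cell cannot be told apart, and the part of these markers in the results was not tested.

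At 24 h 1488 genes were called, 13.6% of those tested: 988 higher (9%) and 500 lower (4.55%). The libraries of the 2 times did not overlap for 2039 higher genes (18.6%) and 1661 lower genes (15.1%). An absolute log2 fold change of at least 1 was found for 739 of the called genes, 540 higher and 199 lower. The split depends on the scale: limma on log2(TPM + 1) called 424 genes higher and 735 lower, and on that scale the median of all genes tested shifted by -0.22. With each library centred on its median, a setting chosen after the data were seen, 704 were higher and 599 lower. The changes given below are relative to the typical gene. Counts of list members called are to be read beside the shares of all genes.

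The promoters of 6 induced genes, picked as examples, are shown first with short runs of letters marked. Binding to these letters was not tested. Each sequence is the 250 bases before the RefSeq start of the gene (GRCh38.p14), read 5′ to 3′ on the gene's strand. Capitals mark matches, on either strand, to TGANTCA (AP-1, the FOS and JUN dimers) and GGNNTTNCC (the κB site of NF-κB) in IL11, IL6, CXCL8 and CXCL1, to GAAANNGAAA (the interferon-stimulated response element, ISRE) in IFIT1, and to the κB and ISRE letters in B2M, where the 2 ISRE matches overlap.
IL11, chr19:55370464-55370713, minus strand: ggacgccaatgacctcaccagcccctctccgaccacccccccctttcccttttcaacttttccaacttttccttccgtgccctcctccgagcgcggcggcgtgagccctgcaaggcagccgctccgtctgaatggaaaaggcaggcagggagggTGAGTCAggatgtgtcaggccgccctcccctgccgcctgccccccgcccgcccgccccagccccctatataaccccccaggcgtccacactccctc
IL6, chr7:22726950-22727199, plus strand: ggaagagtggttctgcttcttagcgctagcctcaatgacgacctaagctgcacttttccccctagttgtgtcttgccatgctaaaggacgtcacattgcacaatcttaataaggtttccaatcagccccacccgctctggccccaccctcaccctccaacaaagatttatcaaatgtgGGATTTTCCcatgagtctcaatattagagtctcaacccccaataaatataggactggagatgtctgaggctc
CXCL8, chr4:73740319-73740568, plus strand: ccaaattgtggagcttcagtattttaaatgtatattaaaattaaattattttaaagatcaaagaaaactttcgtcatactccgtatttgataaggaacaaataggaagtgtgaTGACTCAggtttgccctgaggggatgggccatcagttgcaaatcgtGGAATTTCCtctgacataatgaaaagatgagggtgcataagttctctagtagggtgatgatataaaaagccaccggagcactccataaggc
CXCL1, chr4:73869143-73869392, plus strand: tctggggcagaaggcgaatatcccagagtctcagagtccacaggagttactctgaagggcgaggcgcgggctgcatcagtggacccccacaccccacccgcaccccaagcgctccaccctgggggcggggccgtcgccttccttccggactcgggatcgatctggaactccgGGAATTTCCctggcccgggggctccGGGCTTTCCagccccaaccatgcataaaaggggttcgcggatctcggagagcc
IFIT1, chr10:89392373-89392622, plus strand: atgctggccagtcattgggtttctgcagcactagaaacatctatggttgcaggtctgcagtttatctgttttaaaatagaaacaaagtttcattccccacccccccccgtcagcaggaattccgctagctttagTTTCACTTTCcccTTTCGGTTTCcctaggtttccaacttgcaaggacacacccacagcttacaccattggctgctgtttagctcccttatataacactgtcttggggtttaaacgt
B2M, chr15:44711267-44711516, plus strand: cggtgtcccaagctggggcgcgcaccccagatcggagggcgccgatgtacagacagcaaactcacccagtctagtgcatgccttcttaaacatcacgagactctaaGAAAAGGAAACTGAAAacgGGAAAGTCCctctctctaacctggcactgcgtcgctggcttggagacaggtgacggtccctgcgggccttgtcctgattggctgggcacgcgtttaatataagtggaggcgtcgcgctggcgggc

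Of 27305 upstream windows of this length 6.6% held the AP-1 letters, 14.8% the κB letters and 3.07% the ISRE letters. For the 8298 windows of tested genes the shares were 3.84%, 16.9% and 2.41%. IL11 held an AP-1 match 96 to 90 bases before its start and no κB match. CXCL8 held an AP-1 match 137 to 131 bases and a κB match 91 to 83 bases before its start. All 6 CXC chemokine windows held κB letters, as did 7 of the 15 windows found for the tested NF-κB inhibitors and targets, 6 of the 10 for the class I genes and 3 of the 14 for the interferon-stimulated genes. The ISRE letters were in 9 of the 14 windows found for the interferon-stimulated genes and in 5 of 10 for the class I genes, against 0 of 6 for the CXC chemokines and 0 of 15 for the NF-κB genes. The AP-1 letters were in 1 of 6 windows for the CXC chemokines and 0 of 15 for the NF-κB genes. They were in 0 of 10 for the class I genes and 0 of 14 for the interferon-stimulated genes. A match is a run of letters and was not tested for binding. LIF had no window in the reference.

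The interleukin 6 family cytokines were among the induced genes that remained high at 24 h. Of 6 family ligands 4 were tested and 3 were called higher, with a median log2 fold change of 4.61 over the 4, beside 0 over all genes tested. IL11 was 10.1, 7.8 and 7.58 CPM at 0 h and 88.3, 119 and 88.8 at 24 h, with every 24 h library above every 0 h library (log2 fold change 3.51 ± 0.27, adjusted p = 3.87e-12). LIF, which maintains stem cells and shapes stromal inflammation, was 0.429, 1.13 and 0 CPM at 0 h and 30.6, 32.3 and 26.4 at 24 h (log2 fold change 5.71 ± 0.44, adjusted p = 7.23e-12), a change of 6.62 without replicate 2 at 0 h. IL6, the founding member, was 3.43, 2.89 and 2.97 CPM at 0 h and 1341, 971 and 1035 at 24 h (log2 fold change 8.47 ± 0.37, adjusted p = 1.87e-17). The libraries of both times stood apart for all 3 genes. The libraries at 6 h held more of each, a difference that was not tested: 229.9, 323 and 302 CPM of IL11, 1051, 1222 and 1270.3 of LIF and 2964, 4211 and 4039 of IL6. CLCF1, a ligand of the ciliary neurotrophic factor receptor, was not called at 24 h (log2 fold change 0.66 ± 0.23, adjusted p = 0.0527). Of 5 receptors 3 were tested: OSMR, the oncostatin M receptor, rose (log2 fold change 1.27 ± 0.15, adjusted p = 8.48e-08), IL6ST rose (log2 fold change 0.73 ± 0.24, adjusted p = 0.0352) and IL11RA, the receptor of IL11, fell (log2 fold change -0.72 ± 0.24, adjusted p = 0.0422). The IL11RA libraries were 16.1, 17.1 and 15.8 CPM at 0 h and 9.14, 9.95 and 10.6 at 24 h. The IL11RA call was lost whichever of the 6 libraries was left out, and that of IL6ST when any 1 of 4 of them was.

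**Figure D1:**
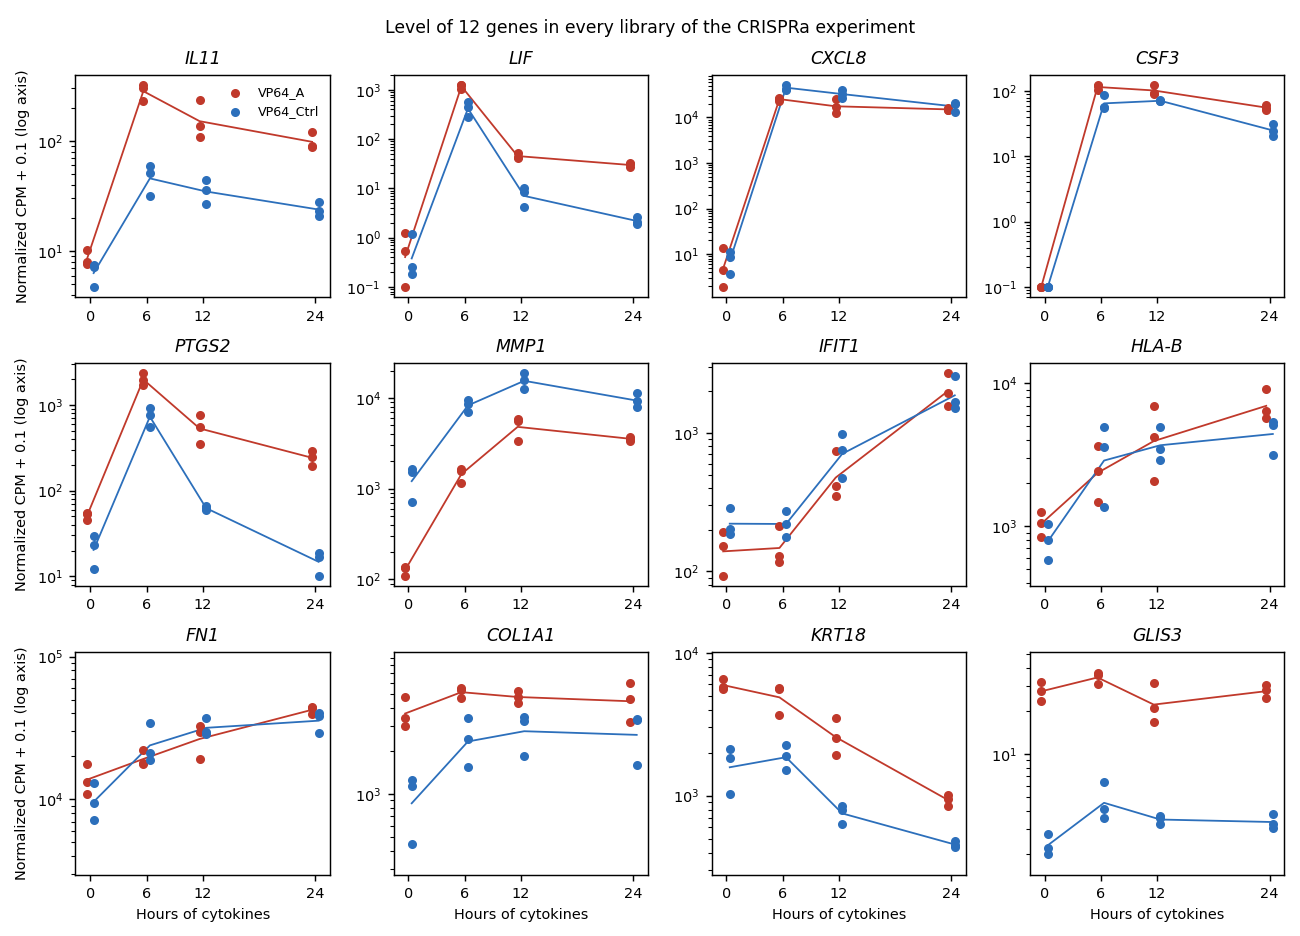
Level of 12 genes in the 24 libraries of the CRISPRa experiment, as normalized CPM plus 0.1 on a log axis, against hours of TGFβ and IL-1β. Points are libraries (red VP64_A, blue VP64_Ctrl), and lines join the means of the 3 log values. IL11, LIF and PTGS2 peaked at 6 h and were higher in VP64_A than in VP64_Ctrl at 24 h, IFIT1 rose from 12 h, and GLIS3 lay between 23.3 and 32 in VP64_A at 0 and 24 h.

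The neutrophil-attracting CXC chemokines had the largest median of the lists examined, with all 6 members called higher and a median log2 fold change of 9.06 (8.83 with CXCL6, which was at 0 counts at 0 h, set at its lower bound). CXCL8 (interleukin 8) was 13.6, 4.28 and 1.81 CPM at 0 h and 15990, 14483 and 14666 at 24 h (log2 fold change 11.07 ± 0.60, adjusted p = 1.66e-15), and it was 25755, 27105 and 23109 at 6 h. CXCL1 was 0.515, 0 and 0.494 CPM at 0 h and 111, 113 and 99.8 at 24 h (log2 fold change 8.19 ± 0.50, adjusted p = 2.15e-14). CXCL3 was 0.258, 0 and 0.165 CPM at 0 h and 142, 123 and 110.1 at 24 h (log2 fold change 9.47 ± 0.51, adjusted p = 1.47e-15). For these 3 chemokines every 24 h library lay far above the 0 h libraries. Without replicate 1 at 0 h the log2 fold changes were 12.22 for CXCL8, 8.82 for CXCL1 and 10.38 for CXCL3. CXCL2 and CXCL5 held 2 counts each over the 3 libraries at 0 h and 1037 and 238 at 24 h, which gave ratios of 1020 (counting interval 282 to 8410) and 234 (64.7 to 1930) after scaling. CXCL6 was at 0 counts in the 0 h libraries and at 6.53, 7.89 and 10.4 CPM at 24 h, at least 74.6-fold higher than 3 counts over the group would be. Such intervals and floors cover counting error only. Of 12 other chemokines 6 were tested, 4 were called higher and 1 lower. CCL2, which attracts monocytes, was 4.64, 4.65 and 3.29 CPM at 0 h and 528, 416 and 393 at 24 h (log2 fold change 6.70 ± 0.34, adjusted p = 3.87e-16). CXCL10, a T cell attractant induced by interferon, held 0 counts at 0 h and 5.22, 5.49 and 5.21 CPM at 24 h, at least 45.2-fold higher than the same floor. CXCL12, which retains CXCR4+ cells in stroma, fell from 13.1, 14.1 and 11.9 CPM to 7.31, 5.83 and 4.74 (log2 fold change -1.16 ± 0.24, adjusted p = 0.000822).

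Growth factors of blood cells rose as well. Of 10 colony-stimulating factors and stromal cytokines 6 were tested and 4 called higher. CSF3 (granulocyte colony-stimulating factor) was at 0 counts in all 3 libraries at 0 h and at 62.1, 55.2 and 50.9 CPM at 24 h, at least 472-fold higher than the floor of 3 counts over the group. CSF2 (granulocyte-macrophage colony-stimulating factor) was 0.429, 0 and 0 CPM at 0 h and 52.5, 31.9 and 37.4 at 24 h (log2 fold change 7.58 ± 0.46, adjusted p = 2.03e-14). All 5 counts of CSF2 at 0 h were in replicate 1, and without that library the fitted change was 10.85, a value that depends on the prior count. CSF1, the macrophage factor, rose from 10.2, 10.6 and 10.2 to 32.1, 33.3 and 34 CPM (log2 fold change 1.68 ± 0.17, adjusted p = 5.47e-09). IL32, an inflammatory cytokine, was 2.06, 2.26 and 0.659 CPM at 0 h and 78.9, 78.9 and 63.7 at 24 h (log2 fold change 5.37 ± 0.25, adjusted p = 4.03e-17). Unlike CSF1, whose mean was 115 CPM at 6 h and 33.1 at 24 h, IL32 had means of 21.3 at 6 h and 73.8 at 24 h.

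Genes of IL-1 signalling and NF-κB were called higher and none lower. Of 16 IL-1 pathway genes 13 were tested and 5 were called higher, with a median of 0.69. IL1B itself was 1.8, 0.629 and 0.165 CPM at 0 h and 314, 236 and 292 at 24 h (log2 fold change 8.09 ± 0.46, adjusted p = 3.79e-15), and without replicate 1 at 0 h the change was 9.29. IRAK2, a kinase that carries the IL-1 signal, was 2.32, 3.77 and 6.92 CPM at 0 h and 31.1, 37.1 and 38.4 at 24 h (log2 fold change 3.13 ± 0.24, adjusted p = 6.3e-12), and the adaptor MYD88 rose too (log2 fold change 1.72 ± 0.19, adjusted p = 2.94e-08). IL1A, the sister cytokine of IL1B, held 2 counts over the 0 h libraries and 86 over those at 24 h, a ratio of 84.4 (counting interval 23.4 to 697). Of the 5 NF-κB subunits 4 were called higher (NFKB1, NFKB2, REL and RELB), and RELA was not (log2 fold change 0.58 ± 0.28, adjusted p = 0.193). RELB, which partners NFKB2 in the slower branch of the pathway, was 0.859, 1.26 and 1.32 CPM at 0 h and 9.4, 11.3 and 5.37 at 24 h (log2 fold change 2.90 ± 0.42, adjusted p = 3.34e-06). Of 17 tested NF-κB inhibitors and targets 14 were called higher and 0 lower, with a median of 4.01. NFKBIA, the inhibitor IκBα, was 24.4, 29.8 and 24.9 CPM at 0 h and 431, 441 and 469.8 at 24 h (log2 fold change 4.09 ± 0.24, adjusted p = 7.35e-15). TNFAIP3, the ubiquitin-editing inhibitor A20, was 5.15, 5.79 and 7.08 CPM at 0 h and 121, 104 and 123 at 24 h (log2 fold change 4.29 ± 0.23, adjusted p = 1.47e-15). SOD2, the mitochondrial superoxide dismutase, was 18.8, 20.1 and 20.3 CPM at 0 h and 1909, 1529.8 and 1782 at 24 h (log2 fold change 6.46 ± 0.28, adjusted p = 1.87e-17). These 3 genes separated the times in every library. ICAM1, an adhesion molecule for leukocytes, rose by 6.32 on the log2 scale. Of 8 tested AP-1 genes 4 were called higher: JUNB (2.25), MAFF (2.05), FOSL2 and FOSL1. FOSL1 was 116, 111 and 111 CPM at 0 h and 179, 166 and 158 at 24 h (log2 fold change 0.58 ± 0.19, adjusted p = 0.0389), and with DESeq2's size factors it missed the threshold (adjusted p = 0.0502), as it did whichever library was left out. JUN was not called (log2 fold change -0.48 ± 0.19, adjusted p = 0.0901).

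The interferon-stimulated genes stood at larger changes at later times. All 20 interferon-stimulated genes were called higher at 24 h, with a median of 3.57 and with no overlap between the libraries of the 2 times for any of them. Their median against 0 h was 0.77 at 6 h, when 9 were called, and 2.02 at 12 h, when 19 were. Of all 10980 genes tested 1907 were called at 6 h and 2159 at 12 h. The NF-κB list had medians of 5.64, 3.87 and 4.01 at 6, 12 and 24 h. These comparisons share the 0 h libraries. IFIT1, an antiviral RNA-binding protein, was 192, 93.2 and 152 CPM at 0 h, 118, 129 and 212 at 6 h and 2677, 1568 and 1919 at 24 h (log2 fold change 3.82 ± 0.34, adjusted p = 1.7e-10). MX1, an antiviral GTPase, was 0.859, 0.88 and 0.329 CPM at 0 h and 54.6, 32.6 and 35.1 at 24 h (log2 fold change 5.76 ± 0.41, adjusted p = 7.38e-13). For IFIT1 the libraries at 0 and 6 h overlapped, and those at 24 h were above both. IRF1, an interferon regulatory factor that NF-κB also induces, had its largest change at 6 h (log2 fold change 3.25) and was still higher at 24 h (log2 fold change 1.76 ± 0.22, adjusted p = 2.5e-07). All 13 genes of class I antigen presentation were called higher (median 1.69), among them TAP1, the peptide transporter (log2 fold change 2.56 ± 0.22, adjusted p = 8.84e-11), and B2M, the light chain (log2 fold change 1.40 ± 0.29, adjusted p = 0.000794). HLA-B was 1063, 1269 and 838 CPM at 0 h and 6445, 9139 and 5747 at 24 h (log2 fold change 2.75 ± 0.41, adjusted p = 6.84e-06), and reads of the similar HLA genes may have been shared between them. Of 7 tested complement genes 6 were called higher. C3, the central complement protein, was 0.859, 1.13 and 0.824 CPM at 0 h and 42.8, 31.6 and 33.2 at 24 h (log2 fold change 5.23 ± 0.30, adjusted p = 6.14e-15), and CD55, which protects cells from complement, was also higher (log2 fold change 1.77 ± 0.14, adjusted p = 1.15e-11).

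**Figure D2:**
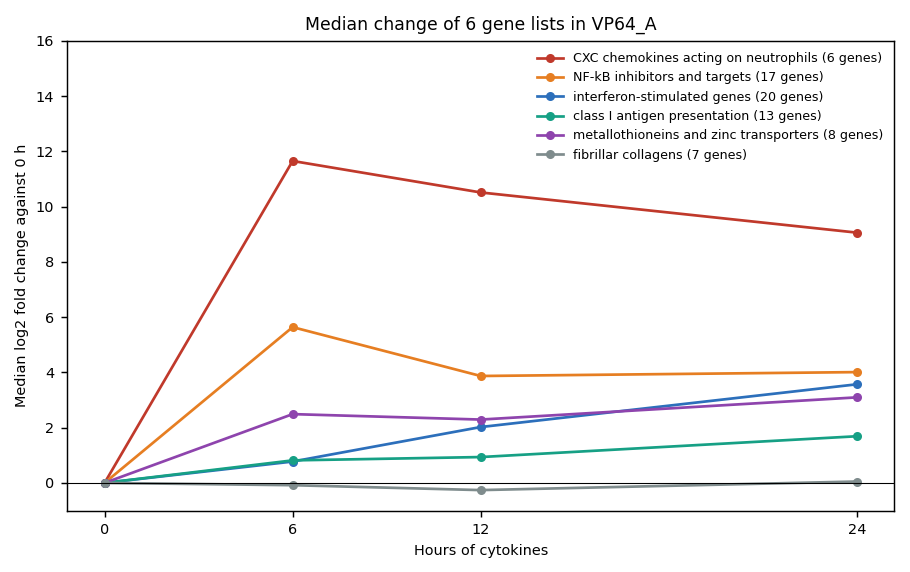
Median log2 fold change against 0 h of 6 gene lists in VP64_A, at 6, 12 and 24 h of TGFβ and IL-1β. The median was 11.65 at 6 h and 9.06 at 24 h for the CXC chemokines and 0.77 and 3.57 for the interferon-stimulated genes, while that of the fibrillar collagens lay between -0.26 and 0.05.

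Metallothioneins, small proteins that bind zinc and copper, rose. Of 8 tested metallothioneins and zinc transporters 6 were called higher, with a median of 3.09. MT2A, a ubiquitous metallothionein, was 2036, 1078 and 1745 CPM at 0 h and 7569.7, 7225 and 7430.3 at 24 h (log2 fold change 2.19 ± 0.29, adjusted p = 5.15e-07). SLC39A14, a zinc and iron importer of the acute phase, was 107, 110.2 and 101 CPM at 0 h and 1163, 935 and 1071 at 24 h (log2 fold change 3.32 ± 0.25, adjusted p = 4.34e-12). MT1M rose (log2 fold change 4.71 ± 0.55, adjusted p = 5.33e-08, and 5.41 without replicate 1 at 0 h), and metallothionein genes are similar enough that reads may have been shared between them.

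TGFβ genes were called in both directions, beside 9% of all genes tested called higher and 4.55% lower. Of 12 tested TGFβ and bone morphogenetic protein (BMP) ligands and receptors 2 were called higher and 1 lower. INHBA, the subunit of activin A, was 0.172, 0.88 and 0.329 CPM at 0 h and 71.5, 67.3 and 77.1 at 24 h (log2 fold change 7.31 ± 0.38, adjusted p = 4.07e-16), and without replicate 2 at 0 h the change was 8.18. TGFB2 was 2.4, 1.26 and 1.15 CPM at 0 h and 13.6, 17.8 and 15.8 at 24 h (log2 fold change 3.18 ± 0.30, adjusted p = 5.83e-10). BMP4 fell from 6.01, 9.43 and 7.08 CPM to 0.261, 2.4 and 1.58 (log2 fold change -2.42 ± 0.48, adjusted p = 0.000428), and ID1, a target of BMP signalling, from 218, 214 and 313 to 96.1, 94.4 and 119.6 (log2 fold change -1.26 ± 0.20, adjusted p = 1.18e-05). Of 9 tested antagonists and latency proteins 4 were called higher and 1 lower, the higher ones including GREM1, a BMP antagonist (log2 fold change 1.10 ± 0.25, adjusted p = 0.00223), FSTL3, an activin antagonist (log2 fold change 1.59 ± 0.21, adjusted p = 4.76e-07), and LRRC15, a marker of matrix-producing fibroblasts (log2 fold change 3.40 ± 0.36, adjusted p = 8.06e-09). Of 13 tested genes in the list of SMADs and SMAD feedback 5 were called higher and 1 lower, the lower one being ID1. SMAD7, the inhibitory SMAD, rose by 2.69 (2.06 without replicate 1 and 3.56 without replicate 2 at 0 h) and SKIL, a SMAD co-repressor, by 1.12 on the log2 scale. The median of the SMAD list was 0.16 and turned negative on the uncentred TPM scales, at -0.07 with a pseudocount of 1 and -0.14 with 0.1. Of 13 tested TEAD factors, coactivators and targets 3 were called higher and 1 lower.

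Matrix genes split by class. None of the 7 tested fibrillar collagens was called higher and 2 were called lower, with a median of 0.05 whose sign turned under 6 of the 14 alternatives. In VP64_Ctrl 3 were called higher, beside 10.4% of all genes tested there, with a median of 0.76. The difference between the groups had a median of -0.79 and was called for none of the 7, beside 0.209% of all genes tested. COL1A1, the main chain of type I collagen, was 3418, 4766 and 2986 CPM at 0 h and 4578, 6014 and 3197 at 24 h, and the libraries overlapped (log2 fold change 0.30 ± 0.34, adjusted p = 0.638). COL3A1 was 792, 1169.6 and 796 CPM at 0 h and 477, 494 and 482 at 24 h (log2 fold change -0.92 ± 0.30, adjusted p = 0.0393), a call that DESeq2 did not make (adjusted p = 0.0738) and that was lost when any 1 of 4 libraries was left out. COL11A1 fell from 135, 162 and 145 to 66.8, 51.5 and 54.3 CPM (log2 fold change -1.35 ± 0.22, adjusted p = 1.83e-05). Of 14 other collagens 5 were higher and 3 lower. COL7A1, which anchors the epidermis, rose (log2 fold change 1.78 ± 0.24, adjusted p = 7.64e-07), as did COL16A1 (log2 fold change 1.37 ± 0.23, adjusted p = 4.05e-05), whereas COL12A1, a fibril-associated collagen, fell (log2 fold change -0.61 ± 0.17, adjusted p = 0.0144), a call lost when any 1 of 3 libraries was left out. Of 18 enzymes that modify collagen 8 were called higher and 0 lower by edgeR. Of the 18 fitted changes 11 were positive and 7 negative, DESeq2 called 1 lower, and 3 were called lower when only the compared libraries were fitted or on the uncentred TPM scales. PLOD2, a lysyl hydroxylase of the collagen ends, was 490.3, 423 and 498 CPM at 0 h and 1858, 1659 and 1784 at 24 h (log2 fold change 1.91 ± 0.25, adjusted p = 7.24e-07). P4HA2, a prolyl hydroxylase, was 236, 258 and 236 CPM at 0 h and 1052, 893 and 1010.5 at 24 h (log2 fold change 2.02 ± 0.21, adjusted p = 5.55e-09). Of 15 tested glycoproteins and proteoglycans 3 were called higher: FN1, THBS1 and TNC. FN1 (fibronectin) was 10968, 17808 and 13331 CPM at 0 h and 44387, 39602 and 43399 at 24 h (log2 fold change 1.60 ± 0.32, adjusted p = 0.000548). THBS1 (thrombospondin 1), which activates latent TGFβ, was 597, 669.8 and 712 CPM at 0 h and 6542, 6486 and 7602 at 24 h (log2 fold change 3.38 ± 0.32, adjusted p = 5.89e-10). TNC (tenascin C) rose by 2.26 on the log2 scale. TGFBI, a TGFβ-induced matrix protein, was not called (log2 fold change 0.35 ± 0.18, adjusted p = 0.221).

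**Figure D3:**
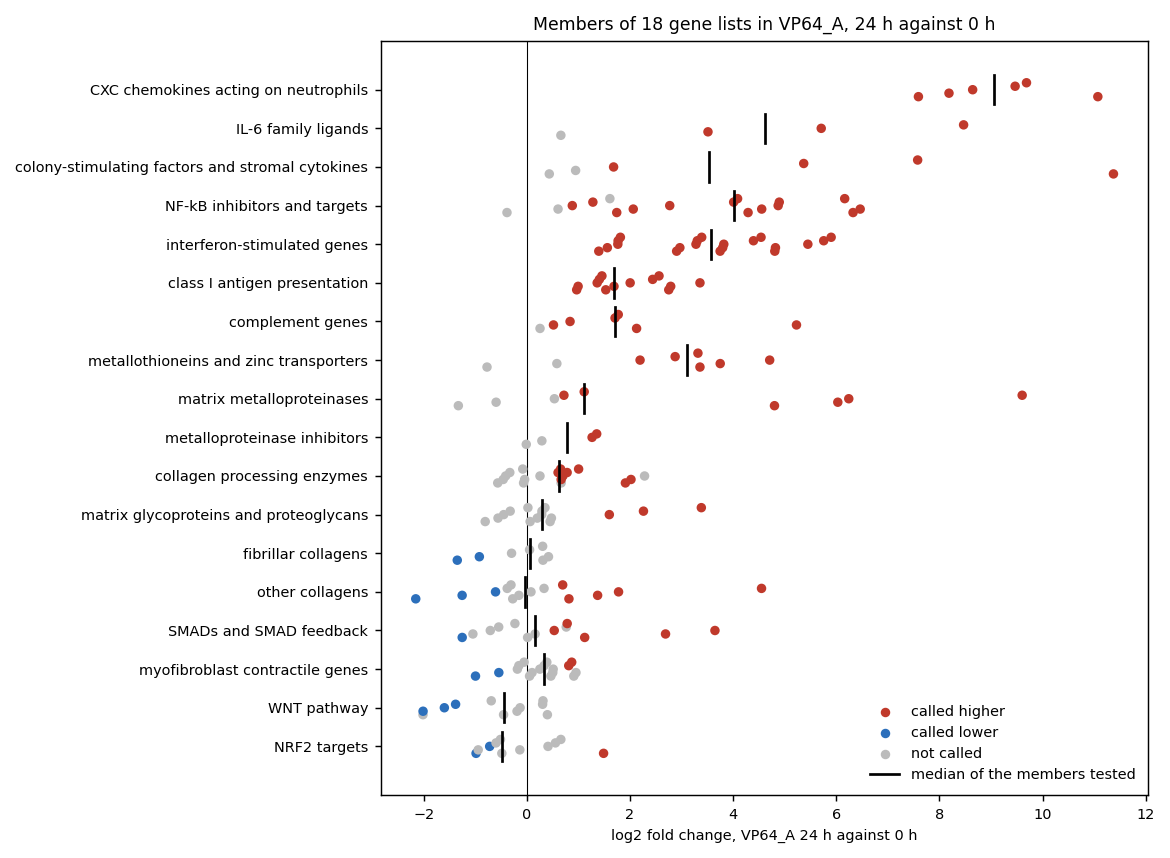
Log2 fold change of VP64_A at 24 h against 0 h for every tested member of 18 gene lists, with genes called higher in red, called lower in blue and not called in grey; black bars are medians of the members tested. All 20 interferon-stimulated genes and all 13 class I genes lie to the right of 0, while the 7 fibrillar collagens lie on both sides with a median of 0.05.

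Most tested matrix metalloproteinases and some of their inhibitors rose, while the ADAMTS proteases were called in both directions. Of 9 tested matrix metalloproteinases 6 were called higher and 0 lower. MMP1, the interstitial collagenase, was 134, 109.9 and 138 CPM at 0 h and 3566, 3360.2 and 3728 at 24 h (log2 fold change 4.80 ± 0.33, adjusted p = 4.39e-13). MMP3 (stromelysin 1) was 10.6, 10.6 and 7.25 CPM at 0 h and 636, 598 and 648 at 24 h (log2 fold change 6.03 ± 0.29, adjusted p = 1.1e-16). Both separated the times in every library. MMP12, an elastase, held 0 counts at 0 h and 19.8, 13.7 and 15.5 CPM at 24 h, at least 140-fold higher than the floor of 3 counts over the group. MMP2, a gelatinase, rose as well (log2 fold change 1.11 ± 0.18, adjusted p = 2.31e-05). Of 4 tested inhibitors 2 were called higher, among them TIMP1 (log2 fold change 1.35 ± 0.22, adjusted p = 2.61e-05). Of 5 tested ADAMTS proteases 1 was called higher and 1 lower, with a median of 0.35. Of 9 tested plasminogen and coagulation regulators 5 were called higher and 1 lower. SERPINB2, an inhibitor of urokinase, was 4.64, 6.04 and 3.29 CPM at 0 h and 1239, 1048 and 1070.5 at 24 h (log2 fold change 7.89 ± 0.39, adjusted p = 2.14e-16). PLAU, the urokinase itself, was 6.7, 8.43 and 7.74 CPM at 0 h and 44.1, 25.4 and 43.6 at 24 h (log2 fold change 2.33 ± 0.21, adjusted p = 2.31e-10). HAS2, a hyaluronan synthase, was 2.06, 3.52 and 3.13 CPM at 0 h and 31.6, 36 and 33 at 24 h (log2 fold change 3.56 ± 0.34, adjusted p = 8.48e-10).

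Contractile genes were called in both directions. Of 17 tested, 4 were called, beside 13.6% of all genes tested: 2 higher (MYL9 and TPM1) and 2 lower (MYLK and SYNPO2). In VP64_Ctrl 7 were called higher and 0 lower, beside 10.4% and 5.57% of all genes tested there. The median was 0.72, against 0.33 in VP64_A. The difference between the groups had a median of -0.41 and was called for none of the 17, beside 0.209% of all genes tested. ACTA2, the smooth muscle actin used to mark myofibroblasts, was 36.1, 68.5 and 33.8 CPM at 0 h and 44.9, 54.2 and 27.3 at 24 h, and the libraries overlapped (log2 fold change -0.16 ± 0.37, adjusted p = 0.854). TPM1 (tropomyosin 1) was 4944, 5013 and 5188 CPM at 0 h and 8978, 9559 and 9096 at 24 h (log2 fold change 0.87 ± 0.28, adjusted p = 0.032), a call lost whichever of the 6 libraries was left out. MYLK, the myosin light chain kinase, was 199, 224 and 209 CPM at 0 h and 163, 123 and 146 at 24 h (log2 fold change -0.55 ± 0.15, adjusted p = 0.0133).

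Surface markers shifted among the 7 tested, with 4 called higher and 1 lower. NT5E (CD73), which makes adenosine, was 192, 146 and 220.3 CPM at 0 h and 868, 737 and 807 at 24 h (log2 fold change 2.11 ± 0.21, adjusted p = 1.78e-09). FAP, fibroblast activation protein, rose (log2 fold change 0.73 ± 0.15, adjusted p = 0.000527), and PDGFRA, the receptor that marks many fibroblasts, fell (log2 fold change -0.72 ± 0.23, adjusted p = 0.0376), a call kept in 6 of 14 alternatives. Of 9 tested prostaglandin genes the cyclooxygenases PTGS1 (log2 fold change 1.45 ± 0.17, adjusted p = 8.48e-08) and PTGS2 were the 2 called. PTGS2, the inducible enzyme, was 44.8, 53.1 and 55 CPM at 0 h and 291, 193 and 247 at 24 h (log2 fold change 2.26 ± 0.28, adjusted p = 1.42e-07). Of 15 tested growth factor ligands 5 were called higher and 0 lower, FGF2, a fibroblast mitogen, among them (log2 fold change 3.12 ± 0.35, adjusted p = 2.73e-08). IGFBP3, the main carrier of insulin-like growth factors, was 2260.4, 2429.6 and 2812 CPM at 0 h and 13381, 13074 and 12759 at 24 h (log2 fold change 2.39 ± 0.27, adjusted p = 3.86e-08), and its relative IGFBP5 fell (log2 fold change -1.09 ± 0.16, adjusted p = 7.46e-06).

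In the WNT list 3 of 11 tested genes were called lower and 0 higher, beside 4.55% and 9% of all genes tested. DKK1, a secreted WNT antagonist, was 854, 732 and 819 CPM at 0 h and 278, 243 and 270.5 at 24 h (log2 fold change -1.60 ± 0.23, adjusted p = 2.22e-06). FZD4, a WNT receptor (log2 fold change -1.38 ± 0.22, adjusted p = 2.38e-05), and SFRP1, a WNT decoy (log2 fold change -2.02 ± 0.46, adjusted p = 0.00212), fell as well. Of 26 tested cell-cycle genes 8 were called higher, with CDK1, the mitotic kinase, at 124, 103 and 119 CPM at 0 h and 235, 252 and 249 at 24 h (log2 fold change 1.09 ± 0.14, adjusted p = 5.62e-07). At 6 h 2 genes of that list were called higher and 7 lower, beside 1256 and 651 of all 10980 genes tested. Of 25 tested glycolysis and hypoxia genes 8 were called higher and 1 lower, and of 17 genes of protein folding in the endoplasmic reticulum 9 were called higher. Of 11 tested targets of NRF2, the antioxidant regulator, 1 was called higher and 2 lower, beside 9% and 4.55% of all genes tested. NQO1, a quinone reductase of that list, was 321, 273 and 298 CPM at 0 h and 152, 133 and 164 at 24 h (log2 fold change -0.99 ± 0.21, adjusted p = 0.00118). SLC7A11, the cystine importer, was listed with the targets of the stress factor ATF4 and not with those of NRF2. It also fell (log2 fold change -1.77 ± 0.35, adjusted p = 0.000461), and replicate 2 stood lower than the others at 24 h (5.74, 0.343 and 4.58 CPM).

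The 10 called genes with the largest rise, among those whose libraries did not overlap and whose mean was at least 5 CPM, were CSF3, CXCL8, CXCL2, MMP12, CXCL3, C15orf48, IL6, CXCL1, IL1B and SERPINB2. The order used fitted changes, which for CSF3, MMP12 and CXCL2, at 0 or 2 counts at 0 h, depend on the prior count of the fit. C15orf48, a small mitochondrial protein gene induced in inflammation, was 0.343, 0 and 0.659 CPM at 0 h and 161, 118 and 137 at 24 h (log2 fold change 8.70 ± 0.36, adjusted p = 8.41e-18). The 10 with the largest fall by the same rule were RGS4, CPA4, KRTAP2-3, PCDH18, KRT18, FHL1, TNFRSF10D, KCNN4, CITED2 and MITF. RGS4, which shortens G protein signalling, was 37.1, 31.1 and 35.4 CPM at 0 h and 1.83, 2.75 and 1.26 at 24 h (log2 fold change -4.24 ± 0.35, adjusted p = 3.17e-11). KRT18, a keratin of simple epithelia that cultured fibroblasts can express, was 5609, 6506 and 5742 CPM at 0 h and 941, 847 and 1011 at 24 h (log2 fold change -2.67 ± 0.27, adjusted p = 3.67e-09). FHL1, a LIM-domain protein, was 498, 416 and 450.2 CPM at 0 h and 76.5, 63.8 and 82.3 at 24 h (log2 fold change -2.61 ± 0.17, adjusted p = 1.82e-13). For all 3 every 24 h library lay below every 0 h library, which the rule required. TNFRSF10D, a decoy receptor for the death ligand TRAIL, fell by 2.59 on the log2 scale, CITED2, a coactivator that restrains hypoxia signalling, fell by 2.16, and MITF, the transcription factor of melanocytes, fell by 2.03. For CPA4, a carboxypeptidase, the log2 fold change was -3.52. It was -3.43 for KRTAP2-3, a hair keratin-associated protein that belongs to a family of similar genes, -3.04 for PCDH18, a protocadherin, and -2.40 for KCNN4, a potassium channel.

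The response was then set beside that of VP64_Ctrl over the same times, which shares no library with it. In VP64_Ctrl 1752 genes were called (16%), 1140 higher (10.4%) and 612 lower (5.57%). Of the genes higher in VP64_A 689 were also called higher in VP64_Ctrl, which is 69.7% of the first list and 60.4% of the second. For lower genes the overlap was 255, or 51% and 41.7%. Levels are a separate matter: between the groups the same test called 1033 genes at 0 h and 453 at 24 h, of 10980 tested. The difference between the responses (the interaction, VP64_A minus VP64_Ctrl log2 fold change) was called for 23 genes (0.209%), 14 with a more positive change in VP64_A (0.128%) and 9 with a more negative one (0.082%). VP64_Ctrl replicate 3 at 0 h stood apart, with a scaling factor of 1.84 and 23.1% of counts in the most abundant 50 genes, and without it 21 genes were called, 17 of them among the 23.

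The cyclooxygenase PTGS2 differed between the groups. It was 12.2, 23 and 29.5 CPM at 0 h and 16.9, 18.5 and 10.1 at 24 h in VP64_Ctrl, where the times overlapped, against 44.8, 53.1 and 55 at 0 h and 291, 193 and 247 at 24 h in VP64_A (interaction 2.79 ± 0.40, adjusted p = 0.000289). ESM1, a secreted proteoglycan, was 5.5, 6.67 and 5.6 CPM at 0 h and 78.9, 76.5 and 94.3 at 24 h in VP64_A, and 38.8, 27.8 and 34.3 at 0 h and 88, 103 and 90.1 at 24 h in VP64_Ctrl (interaction 2.34 ± 0.31, adjusted p = 0.000196). STC1, a secreted glycoprotein that inhibits an IGFBP protease, was 25.3, 24.1 and 21.9 CPM at 0 h and 198, 186 and 173 at 24 h in VP64_A, and 8.35, 8.78 and 11.2 at 0 h and 22.3, 18.5 and 27.1 at 24 h in VP64_Ctrl (interaction 1.66 ± 0.29, adjusted p = 0.00416). IL32 rose more in VP64_A (interaction 2.10 ± 0.34, adjusted p = 0.00168). For PTGS2 and STC1 the 24 h level was higher in VP64_A than in VP64_Ctrl. For ESM1 the 24 h libraries of both groups overlapped, and the 0 h libraries were lower in VP64_A.

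MMP1, MMP3, TFPI2 and PODXL also started lower in VP64_A. MMP3 was 160.4, 177 and 102 CPM at 0 h and 2949, 2339 and 2348 at 24 h in VP64_Ctrl, above the VP64_A libraries at both times, and its change was larger in VP64_A (interaction 1.91 ± 0.34, adjusted p = 0.00441). MMP1 was 1535, 1636 and 706 CPM at 0 h and 11364, 9176 and 7859 at 24 h in VP64_Ctrl (interaction 1.93 ± 0.40, adjusted p = 0.0266), a call lost in 12 of 20 alternatives, among them leaving out any 1 of the 6 VP64_A libraries. TFPI2, a protease inhibitor of the matrix, was 1.29, 1.76 and 1.98 CPM at 0 h and 17, 18.5 and 23.9 at 24 h in VP64_A, and 7.77, 5.22 and 8.68 at 0 h and 25.4, 30.5 and 25.7 at 24 h in VP64_Ctrl (interaction 1.70 ± 0.32, adjusted p = 0.00751), a call lost without VP64_A replicate 1 at 0 h or replicate 3 at 24 h (adjusted p = 0.0818 and 0.0638). PODXL, a sialomucin, was 7.13, 10.7 and 7.74 CPM at 0 h and 25.1, 24.7 and 19 at 24 h in VP64_A, and 45.8, 49.6 and 62 at 0 h and 50.7, 46.7 and 56.2 at 24 h in VP64_Ctrl (interaction 1.44 ± 0.26, adjusted p = 0.00441). For all 4 the VP64_A libraries lay below the VP64_Ctrl libraries at 0 h and at 24 h, with the larger change in VP64_A.

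IL11 and LIF ended higher in VP64_A, and the test of the difference was called in 4 of 20 alternatives for IL11 and 6 of 20 for LIF. IL11 was 7.36, 4.64 and 7.04 CPM at 0 h and 27.8, 20.7 and 23.1 at 24 h in VP64_Ctrl, where it rose by 1.94 on the log2 scale. Its interaction was not called by edgeR (interaction 1.57 ± 0.38, adjusted p = 0.0826) and was called by DESeq2 (1.59, adjusted p = 0.0202). LIF was 0.0827, 1.08 and 0.15 CPM at 0 h and 1.8, 1.94 and 2.56 at 24 h in VP64_Ctrl. Its interaction was likewise not called by edgeR (interaction 3.60 ± 0.90, adjusted p = 0.114) and called by DESeq2 (3.61, adjusted p = 0.00193). Leaving out 1 library moved the LIF interaction between 1.64 (without VP64_Ctrl replicate 2 at 0 h, adjusted p = 0.877) and 4.51 (without VP64_A replicate 2 at 0 h, adjusted p = 0.0527). At 24 h the VP64_A libraries of both genes lay above all VP64_Ctrl libraries. At 0 h those of LIF overlapped, and those of IL11 were higher in VP64_A by a smaller margin.

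Among the 9 genes with a more negative change in VP64_A were a surface peptidase and an interferon regulatory factor. DPP4 (CD26), the peptidase, was 11.8, 8.68 and 10.7 CPM at 0 h and 25.1, 29.2 and 28.3 at 24 h in VP64_A, and 3.8, 4.56 and 3.89 at 0 h and 40.1, 42.8 and 24.5 at 24 h in VP64_Ctrl (interaction -1.71 ± 0.31, adjusted p = 0.00441). IRF1 was 5.95, 3.73 and 4.04 CPM at 0 h and 52.4, 53.8 and 38.2 at 24 h in VP64_Ctrl, a larger rise than in VP64_A (interaction -1.60 ± 0.31, adjusted p = 0.0122), a call lost when any 1 of 3 libraries was left out. UACA, a regulator of apoptosis, fell in VP64_A from 178, 176 and 206 to 60.3, 66.9 and 66.5 CPM and was 154, 126 and 127 at 0 h and 99.3, 119 and 117 at 24 h in VP64_Ctrl (interaction -1.25 ± 0.21, adjusted p = 0.00221). KCNK2, a potassium channel, was 41.3, 34 and 43.7 CPM at 0 h and 36, 39.5 and 32.5 at 24 h in VP64_A, where the times overlapped, and 19.4, 18.2 and 16.3 at 0 h and 34.7, 45 and 35.9 at 24 h in VP64_Ctrl (interaction -1.23 ± 0.24, adjusted p = 0.0108), a call also lost when any 1 of 3 libraries was left out. TNFAIP2, an NF-κB target, rose in both groups and less in VP64_A (interaction -1.29 ± 0.28, adjusted p = 0.0335), a difference lost in 14 of 20 alternatives, among them leaving out VP64_Ctrl replicate 3 at 0 h (adjusted p = 0.0582). GLIS3 itself was not among the 23 (interaction -0.57 ± 0.35, adjusted p = 0.79).

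**Figure D4:**
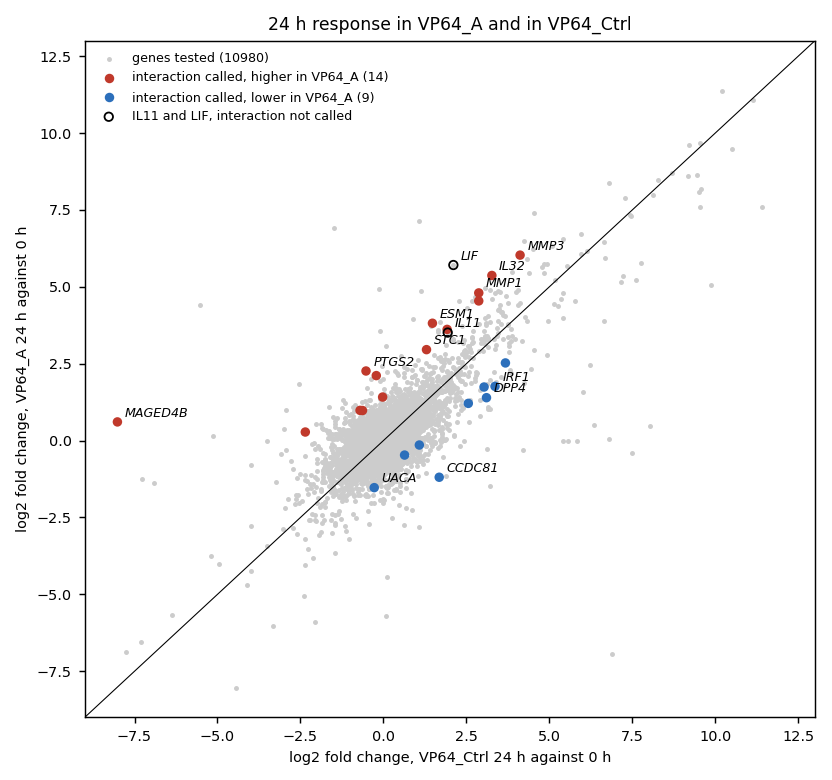
Log2 fold change at 24 h against 0 h of 10980 genes in VP64_Ctrl (horizontal) and VP64_A (vertical), with the line of equal change. Coloured points are the 23 genes whose difference was called by edgeR (14 red, more positive in VP64_A; 9 blue, more negative), and open circles are IL11 and LIF, whose differences were not called.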

How the data were processed

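RNA was sequenced from CRL-4001 fibroblasts with Nextera XT libraries on a NextSeq 500. Per the labels, the authors checked and trimmed reads with FastQC and Trim Galore, aligned them with STAR to GRCh38 and quantified genes with Salmon. Versions, annotation and strand are not given in the sources used here, so a gene and an overlapping antisense gene cannot be told apart. The authors deposited estimated counts and TPM per gene, without replicate pooling.

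Estimated counts were rounded (6.56% of the values were not whole) and filtered with filterByExpr (minimum count 10, total 15), which left 10980 of 29744 genes. edgeR 4.0.16 (R 4.3.3) fitted the 8 groups of the CRISPRa experiment with TMM scaling and the quasi-likelihood test, with no replicate block, and p-values were adjusted over all genes tested by the Benjamini-Hochberg method. The script was tested on simulated data. Alternatives were DESeq2 1.42.0, its size factors, no filter, fitting the compared libraries alone, a replicate block, leaving out each library, and limma 3.58.1 on TPM after adding 1 or 0.1 and taking log2. CPM were scaled by TMM. Genes were named by rule: the 10 largest changes each way among called genes with no overlap and a mean of at least 5 CPM, members of gene lists, and the first 8 interaction genes each way. The members and lists were chosen with earlier results of these data known. Older symbols were matched through RefSeq (23149 names by symbol, 1852 by synonym). A floor is 3 counts over the group. No replicate pair held the same values. The other 24 libraries of the series were not analysed here. Some items are not reported here.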

Additional observations from a re-analysis of the deposited data

Results flagged for a closer look

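The change at 24 h differed between VP64_A and VP64_Ctrl, by edgeR's interaction test, for 23 genes, given here as the VP64_A minus the VP64_Ctrl log2 fold change with 3 libraries in each of 4 groups. The difference was positive for ESM1 (2.34), PTGS2 (2.79), IL32 (2.10), TMEM200A (2.63), STC1 (1.66), MMP3 (1.91), PODXL (1.44), LRRC8C (1.61), TFPI2 (1.70), MMP1 (1.93), TRIM16L (1.69), DUSP16 (2.33), OAS3 (1.67) and MAGED4B (8.62). It was negative for UACA (-1.25), DPP4 (-1.71), KCNK2 (-1.23), IRF1 (-1.60), CCDC81 (-2.87), C8orf4 (-1.15), STEAP1 (-1.35), TNFAIP2 (-1.29) and ZFPL1 (-1.11). The genes beyond the first 8 in each direction were named after their values were seen.

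Opposite movements were seen for some of them. TRIM16L was 30.2, 28.5 and 25.7 CPM at 0 h and 55.1, 59 and 53.6 at 24 h in VP64_A, and 51, 52.2 and 52 at 0 h and 28.9, 30.8 and 35.3 at 24 h in VP64_Ctrl, so the 24 h libraries lay above the 0 h libraries in the first group and below them in the second. Its reads may be shared with the near-identical TRIM16. CCDC81 was 4.72, 3.52 and 4.28 CPM at 0 h and 1.04, 1.37 and 2.69 at 24 h in VP64_A, and 1.32, 3.07 and 1.5 at 0 h and 7.78, 4.86 and 6.39 at 24 h in VP64_Ctrl. The fall of CCDC81 in VP64_A was not called. Its levels there were low, as 3 counts in a 24 h library equal 0.783, 1.03 and 0.474 CPM. LRRC8C, a subunit of volume-regulated anion channels, was 12.9, 13.3 and 14.5 CPM at 0 h and 28.5, 27.1 and 24.6 at 24 h in VP64_A, and 23.4, 23.7 and 39.1 at 0 h and 14.1, 18.1 and 22.6 at 24 h in VP64_Ctrl. MAGED4B was at 0 counts in the 3 VP64_Ctrl libraries at 24 h, so its fitted difference depends on the prior count and is no bound, and its reads may be shared with the copy MAGED4. The calls for C8orf4, DUSP16, MAGED4B, OAS3, TNFAIP2 and ZFPL1 were lost without VP64_Ctrl replicate 3 at 0 h, the library that stood apart, and those of CCDC81, IRF1, KCNK2, MMP1, STEAP1 and TFPI2 without other single libraries. With 3 libraries per group no single library was tested as an outlier.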

How the results depend on the processing

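In VP64_A between 1113 and 1930 genes were called under the other models, scalings and filters, against 1488, and between 1094 and 1278 when 1 library was left out. Asking for an absolute log2 fold change of at least 1 left 739 genes in VP64_A and 817 in VP64_Ctrl. The count for VP64_Ctrl lay between 1149 (without VP64_Ctrl replicate 1 at 24 h) and 1811 when 1 library was left out. The interaction count was 39 with DESeq2 and 81 with no filter on low counts, and between 13 (without VP64_A replicate 3 at 24 h) and 35 (without VP64_Ctrl replicate 3 at 24 h) with 1 library left out, with 14 without VP64_A replicate 3 at 0 h. The cause was not tested. With the replicate number as a block, 1554 genes were called in VP64_A, 1896 in VP64_Ctrl and 31 for the interaction. Same-numbered libraries of the 2 VP64_A times had deviations correlated at -0.0321, 0.0619 and 0.0569. For VP64_Ctrl the values were 0.105, 0.0242 and 0.231. With 3 libraries per group these values cannot decide whether the numbers pair libraries.

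Of the genes named above as called in VP64_A, 111 were followed through the 14 alternatives. All of these kept their direction, and 95 were called in each. The genes named under Other observations were not followed singly. Leaving out a single library ended the call of FOSL1, PDGFRA, IL6ST, TPM1, IL11RA, SKIL, MYL9, NFKB1, COL3A1, COL12A1 and MYLK, and a TPM scale alone that of FOSL2, REL, FAP, SYNPO2 and B2M. CLCF1 was called with the replicate block (0.65, adjusted p = 0.0495, edgeR). Of the 23 interaction genes all kept their direction and 7 were called in every alternative (ESM1, IL32, MMP3, PTGS2, STC1, TMEM200A and TRIM16L). Among genes that were not called, ACTA2 turned to 0.24 without VP64_A replicate 2 at 0 h and to 0.097 without VP64_A replicate 3 at 24 h (range -0.372 to 0.24), GLIS3 to 0.099 and 0.084 without replicate 3 at 0 h or 24 h (range -0.115 to 0.099), and COL1A1 to -0.032 on both uncentred TPM scales.

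The uncentred TPM scales shifted the median of all genes by -0.22 (pseudocount 1) and -0.29 (pseudocount 0.1), with 36.6% and 38.8% of the called genes higher, against 66.4%. Depth of 3218672 to 10661004 counts limits the values of genes near 0 at 0 h, whose ratios carry the counting intervals given. The 3 libraries of 1 selected population per group measure the spread of those libraries.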

Other observations

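Further gene groups held called genes at 24 h in VP64_A. Of 11 tested integrins 4 were called higher and 1 lower, beside 9% and 4.55% of all genes tested. ITGA2, the collagen-binding α2 subunit, was 33.3, 35.5 and 43.3 CPM at 0 h and 147, 134 and 182 at 24 h (log2 fold change 2.05 ± 0.22, adjusted p = 9.82e-09, edgeR's quasi-likelihood test), and ITGA6, a laminin receptor subunit, fell from 41.9, 49.7 and 47.8 to 26.1, 22 and 23.1 CPM (log2 fold change -0.97 ± 0.23, adjusted p = 0.00262). F3 (tissue factor), which starts coagulation, was 41.6, 46 and 44.5 CPM at 0 h and 187, 200.1 and 173 at 24 h (log2 fold change 2.08 ± 0.21, adjusted p = 3.52e-09). Both integrins and F3 separated the times in every library. Among hyaluronan genes TNFAIP6, a hyaluronan-binding protein of inflammation, rose (log2 fold change 1.45 ± 0.25, adjusted p = 5.47e-05) and CEMIP, a hyaluronan-degrading protein, fell (log2 fold change -1.73 ± 0.48, adjusted p = 0.012). The CEMIP call was lost without VP64_A replicate 1 at 0 h or replicate 2 at 24 h. ANGPTL4, a lipoprotein lipase inhibitor, was 1.89, 2.77 and 3.95 CPM at 0 h, 104, 128 and 151 at 6 h and 15.9, 15.1 and 16 at 24 h (log2 fold change 2.52 ± 0.26, adjusted p = 4.07e-09). IGF2, a fetal growth factor, held 3 counts over the libraries at 0 h and 105 over those at 24 h, a ratio of 68.7 (counting interval 23.5 to 333).

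Stress genes were called in both directions, beside 9% of all genes tested called higher and 4.55% lower. Of 17 tested ATF4 targets and serine synthesis genes 4 were called higher and 2 lower: ATF4, the stress transcription factor, rose (log2 fold change 0.54 ± 0.18, adjusted p = 0.0405) while DDIT3 (CHOP), its apoptotic partner, was 13.7, 15.7 and 12 CPM at 0 h and 8.09, 7.89 and 6 at 24 h (log2 fold change -0.94 ± 0.26, adjusted p = 0.0132). HYOU1, an endoplasmic reticulum chaperone, was 24.5, 26 and 16.5 CPM at 0 h and 43.9, 66.2 and 31.9 at 24 h (log2 fold change 1.05 ± 0.23, adjusted p = 0.00148). These genes were picked from their lists after their values were seen. The ATF4 list held 3 higher calls, not 4, whichever library was left out, and 0 on the uncentred TPM scales.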
